A study of Rattus norvegicus with 11 samples.

Results

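The transcripts described here are those of 46 DNA replication and cell cycle genes, chosen by symbol from a list of known replication, cyclin and mitosis genes. All 46 symbols were found among the 42172 genes of the count files, and all 46 passed the filter on low counts that left 17294 genes for testing. The list holds 14 genes that license replication origins or form the helicase, 9 that synthesise and join DNA, 3 that supply nucleotides, 2 that assemble chromatin behind the fork, 8 cyclins and their regulators, and 10 genes of mitosis and proliferation. The study asked how a frameshift in the C-terminal tail of the linker histone H1.4 affects neurons. Polyadenylated RNA was sequenced from primary hippocampal cultures of CD (Sprague Dawley) rats on day 7 in vitro. All cultures kept the rats' own genome and differed in the protein they were made to express. The first group expressed GFP as the control (GFP, 3 libraries, numbered 2, 3 and 4), the second expressed wild-type H1.4 (WT H1.4, 4 libraries), and the third expressed H1.4 with the C-terminal frameshift tail (H1.4 CFT, 4 libraries). The promoter of the constructs, the way they were delivered, the species of their coding sequence and the share of cells that expressed them are not given in the sources used here. The rat H1f4 gene itself received between 0 and 8 reads per library, which is too few to check the labels. The labels call the libraries biological replicates without naming animals or litters, so each p-value measures the spread between these libraries only.

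A cell copies its genome once per division. The origin recognition complex, Cdc6 and Cdt1 load the ring of Mcm2 to Mcm7 onto origins, Cdc45 and the GINS subunits turn that ring into a moving helicase, and polymerases, their clamp and a ligase copy the strands behind it. Cyclins with their kinases and E2F factors time the entry into DNA synthesis, and mitotic kinases and checkpoint proteins then separate the copies. Neurons are postmitotic, whereas progenitors and glia in primary hippocampal cultures can divide.

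The libraries held 12070941 to 18846492 reads assigned to genes, and the single members had 51 to 1788 reads per library, the lowest for Cdc6 and the highest for Top2a. Levels are given as CPM, gene-assigned reads normalised to the scaled library size, and they are compared between libraries and not between genes. Replicates did not all lie equally close. Within the H1.4 CFT group, a chi-square of counts over genes per degree of freedom was 1.78 between libraries 1 and 2 and 1.91 between libraries 3 and 4, but 7.96 to 9.19 between these pairs. Within the WT H1.4 group the corresponding values were 2.22, 2.21 and 3.67 to 4.56. Within the GFP group the value was 2.08 between libraries 3 and 4, and library 2 differed from them by 4.29 and 5.51. The labels name no batch or date for the libraries. Results are therefore given for all libraries and also within libraries numbered 1 and 2 and within libraries numbered 3 and 4. Each GFP comparison within the lower numbers rests on a single GFP library. A p-value within a pair of numbers measures only the spread between libraries of that pair, which in both H1.4 groups was smaller than between the pairs. Such p-values and counts of calls are therefore not stronger evidence than those over all libraries.

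Markers of neurons and of other cells that such cultures can hold also differed between the groups. Summed over 10 neuron markers, the level was 7208 to 7267 CPM with WT H1.4, 6809 to 7135 CPM with GFP and 4810 to 5616 CPM with H1.4 CFT, and 9 of the 10 fell in H1.4 CFT relative to WT H1.4 and 9 against GFP. The sums in H1.4 CFT libraries 1 to 4 were 5563, 5616, 4813 and 4810 CPM, lowest in libraries 3 and 4. Of 13 progenitor and radial glia markers, 11 were tested and 6 rose in that comparison, none fell, and the sums were 1506 to 1629 CPM with WT H1.4, 1742 to 1874 CPM with GFP and 1764, 1800, 1881 and 1891 CPM in H1.4 CFT libraries 1 to 4. Against GFP 3 of the 11 rose in H1.4 CFT, and 1 fell in WT H1.4. In that list Sox2 and Sox1 were listed at 0 in all 11 libraries. Of 10 astrocyte markers 6 rose and none fell, with sums of 1612 to 1732 CPM with WT H1.4, 2045 to 2190 CPM with GFP and 2114, 2108, 2181 and 2198 CPM in H1.4 CFT libraries 1 to 4. Against GFP 2 of the 10 rose in H1.4 CFT, and 5 fell in WT H1.4. For both lists the H1.4 CFT sums thus overlapped GFP, and those of WT H1.4 lay below both. The oligodendrocyte lineage markers gave no call among 9 relative to WT H1.4, with sums of 477.7 to 573.5 CPM with WT H1.4, 473.2 to 583.6 CPM with GFP and 476.5 to 552.9 CPM with H1.4 CFT. Of 8 microglia markers 3 could be tested, 1 rose and 1 fell, and the sum over all 8 lay between 8.858 and 14.68 CPM in all libraries. Of 13 endothelial, mural and fibroblast markers, 10 could be tested, 4 rose and 1 fell. The sums over all 13 were 62.63 to 79.3 CPM with WT H1.4, 74.04 to 85.22 CPM with H1.4 CFT and 91.4 to 102.7 CPM with GFP. Beside these calls, 16.7% of all tested genes rose and 19.2% fell in H1.4 CFT relative to WT H1.4. Against GFP, 13.3% rose and 16.2% fell in H1.4 CFT, and 0.434% rose and 0.509% fell in WT H1.4. The part of the marker shifts in the results below was not tested, and in bulk RNA fewer cells of a type and less RNA per cell cannot be told apart.

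The study compared H1.4 CFT with WT H1.4, and most of the cell cycle genes that passed the test were higher with the frameshift tail. Of the 46 genes, 10 rose and 2 fell in H1.4 CFT relative to WT H1.4 (edgeR quasi-likelihood test, Benjamini-Hochberg adjusted p under 0.05 over all tested genes). Over all tested genes 35.9% were called, 16.7% rose and 19.2% fell in this comparison, against 21.7% and 4.35% of the 46. The 10 that rose were Cdc6, Mcm2, Mcm4, Mcm7, Gins2, Pola2, Pold1, Rfc4, Rrm1 and Aurkb, and the 2 that fell were Ccnd1 and E2f1. The other 34 did not pass. The fitted log2 fold change was above 0 for 41 of the 46, against 52.6% of all tested genes, and its median was 0.20 over the 46 and 0.018 over all tested genes. All H1.4 CFT libraries lay above all WT H1.4 libraries for 5 members and below them for 2, beside 16.1% and 18.5% of all tested genes. By role, calls of higher level came to 5 of 14 licensing and helicase genes, 3 of 9 synthesis genes, 1 of 3 nucleotide supply genes, 0 of 2 chromatin assembly genes, 0 of 8 cyclins and regulators and 1 of 10 mitosis genes, and both calls of lower level were among the cyclins and regulators.

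**Figure D1:**
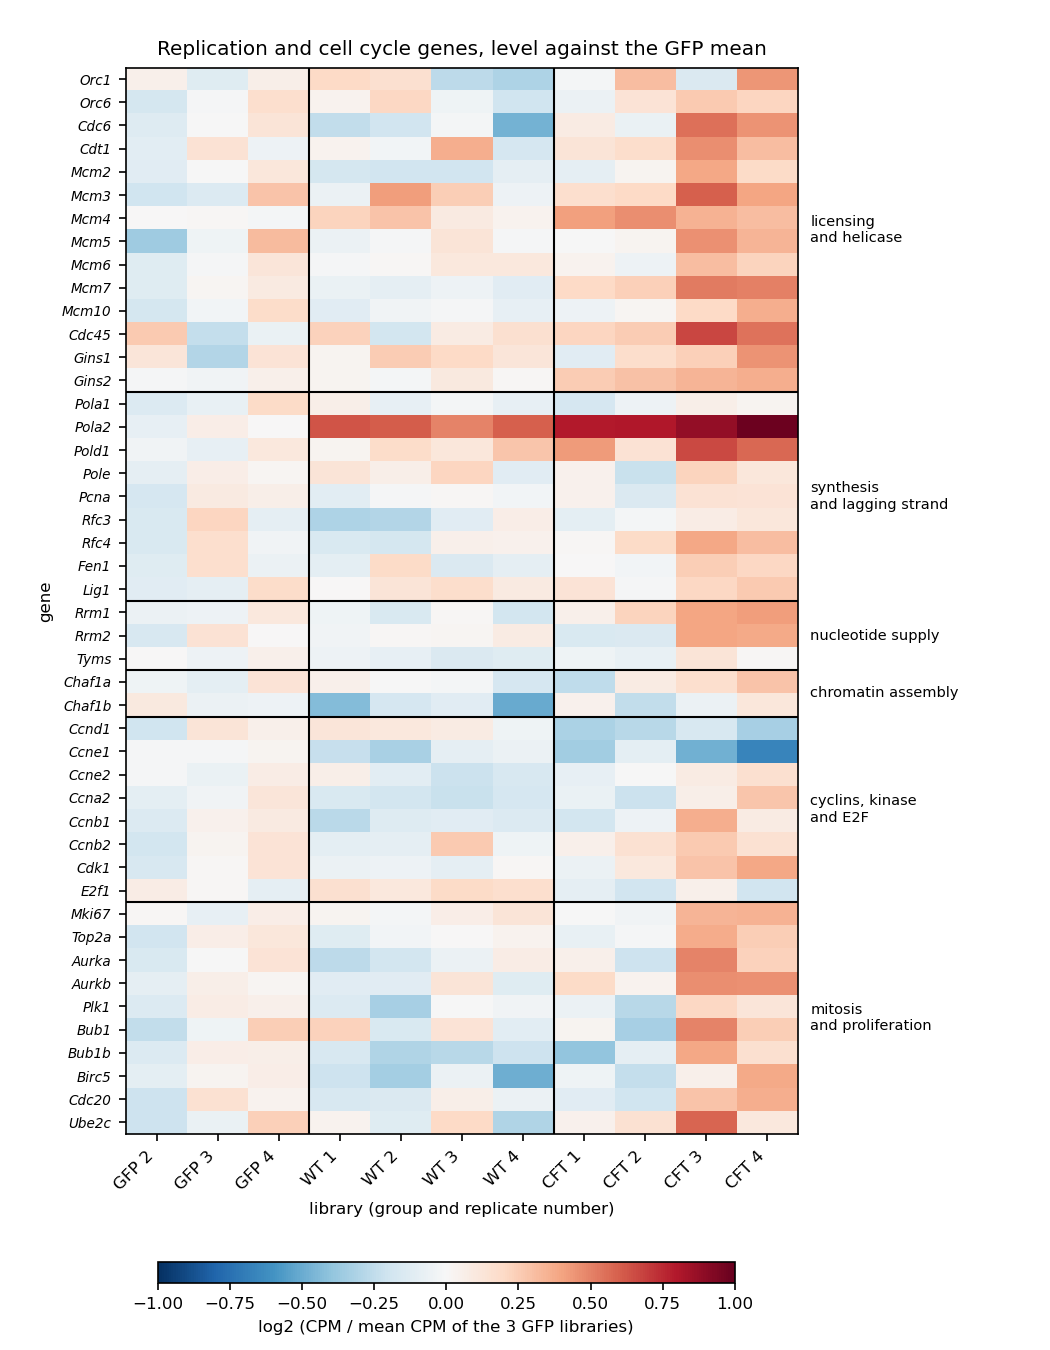
Levels of the 46 genes (rows, ordered by role) in the 11 libraries (columns, by group and library number, with WT for WT H1.4 and CFT for H1.4 CFT), as log2 of CPM over the mean of the GFP libraries, on a colour scale from −1 to 1. The columns H1.4 CFT 3 and H1.4 CFT 4 hold the highest value of the row for 25 and 15 of the 46 genes.

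The rise was unevenly spread over the H1.4 CFT libraries. The highest of the 11 libraries was H1.4 CFT 3 for 25 members and H1.4 CFT 4 for 15, which makes 40 of 46 or 87%, against 28% of all tested genes. Libraries 3 and 4 both exceeded libraries 1 and 2 of the H1.4 CFT group for 38 of 46 members and 26.3% of all tested genes. In the WT H1.4 group, libraries 3 and 4 both exceeded libraries 1 and 2 for 12 of 46 members and 21.5% of all tested genes. Summed over the 46 genes, the level was 1155, 1163, 1390 and 1348 CPM in H1.4 CFT libraries 1 to 4, 1120 to 1165 CPM with WT H1.4, and 1065, 1154 and 1211 CPM with GFP. The sums of H1.4 CFT 1 and 2 thus lay within the range of the other groups, and those of H1.4 CFT 3 and 4 above it. The sum of the 10 mitosis genes, given below, did the same. That of the 14 licensing and helicase genes was 341.3, 352.9, 402.7 and 390.2 CPM in H1.4 CFT libraries 1 to 4. It was 302 to 320.6 CPM with WT H1.4 and 289.2 to 330.2 CPM with GFP, so every H1.4 CFT library lay above the controls. The summed neuron and progenitor markers split the H1.4 CFT libraries in the same pairs (5563 and 5616 against 4813 and 4810 CPM, and 1764 and 1800 against 1881 and 1891 CPM). So did the astrocyte markers (2114 and 2108 against 2181 and 2198 CPM) and the oligodendrocyte lineage markers (476.5 and 486.9 against 552.9 and 498.2 CPM). The microglia markers and those of endothelial, mural and fibroblast cells did not. The part of these markers in the split of the 46 genes was not tested. Within libraries 3 and 4, 33 of the 46 rose and 3 fell in H1.4 CFT relative to WT H1.4, where 20% of all tested genes rose and 23.7% fell, and the median log2 fold change of the 46 was 0.32. Within libraries 1 and 2, 4 rose and 2 fell, where 11.4% of all tested genes rose and 15.3% fell, and the median was 0.047. The 4 that rose there were Mcm4, Mcm7, Gins2 and Rrm1, and the 2 that fell were Ccnd1 and E2f1. The difference between the pairs of libraries was not tested. With the library number as a block, 14 members rose and 2 fell, where 18.6% and 20.8% of all tested genes did. Leaving out single libraries changed the count of members that rose over all libraries from 10 to 5 without H1.4 CFT 3, to 5 without H1.4 CFT 4 and to 16 without H1.4 CFT 1. Over the fits that left out a library, 2279 to 3002 of all tested genes rose, beside 2893 over all libraries.

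**Figure D2:**
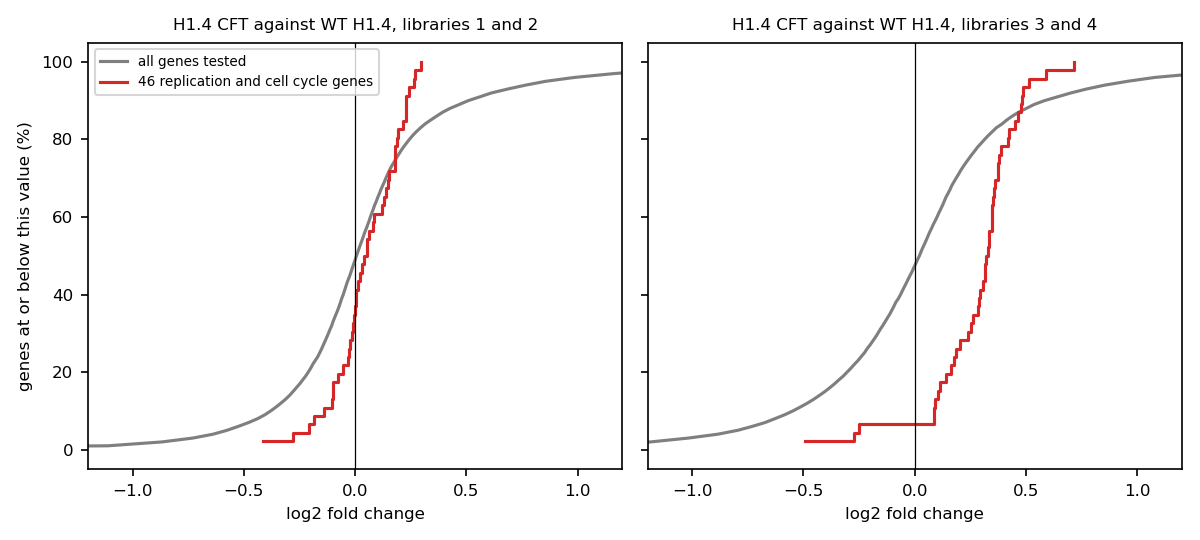
Share of genes (y axis, percent) at or below each log2 fold change (x axis, drawn from −1.2 to 1.2) of H1.4 CFT relative to WT H1.4, within libraries 1 and 2 (left) and within libraries 3 and 4 (right), for the 46 genes (red) and all tested genes (grey). The median of the 46 is 0.047 on the left and 0.32 on the right, where the red curve lies right of the grey one over most of its height.

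Against GFP, the other control, 7 of the 46 rose in H1.4 CFT (Mcm4, Mcm7, Cdc45, Gins2, Pola2, Pold1 and Rrm1) and 2 fell (Ccnd1 and Ccne1). Over all tested genes 29.5% were called, 13.3% rose and 16.2% fell, against 15.2% and 4.35% of the 46. With the library number as a block, 12 members rose and 2 fell against GFP, where 14.5% and 17.9% of all tested genes did. The fitted log2 fold change was above 0 for 41 of 46 and for 51.8% of all tested genes, and the medians were 0.14 and 0.011. Both comparisons use the same H1.4 CFT libraries, so their values are given side by side and not as separate evidence. Within libraries 3 and 4, 16 members rose and 2 fell, where 17.2% of all tested genes rose and 21.6% fell. The 2 calls of lower level became 0 without GFP 3 and 1 without each of H1.4 CFT 3, H1.4 CFT 4, GFP 2 and GFP 4. Within libraries 1 and 2, again with a single GFP library assumed to vary like the others, 5 rose and none fell, where 6.96% rose and 11.7% fell.

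Between the controls, WT H1.4 against GFP, 1 of the 46 genes rose (Pola2) and none fell by edgeR's quasi-likelihood test, where 0.943% of all tested genes were called, 0.434% rose and 0.509% fell. All WT H1.4 libraries lay above all GFP libraries for 3 members and below them for 4, beside 6.29% and 5.94% of all tested genes. Within libraries 1 and 2, where GFP is a single library assumed to vary like the other groups, Pola2 and Ccnd1 rose and none fell, where 0.567% of all tested genes rose and 0.639% fell, and within libraries 3 and 4, 1 rose and none fell, where 5.5% rose and 3.75% fell. With the library number as a block, 1 rose and none fell, where 0.723% rose and 0.711% fell. The call of Pola2 ended without GFP 4. DESeq2 gave the same counts of members, and 3 members (6.52%) had an unadjusted p under 0.05, as did 11.5% of all tested genes. The fitted log2 fold change was above 0 for 18 of the 46 and for 49.7% of all tested genes, and the median over the 46 was −0.04.

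**Figure D3:**
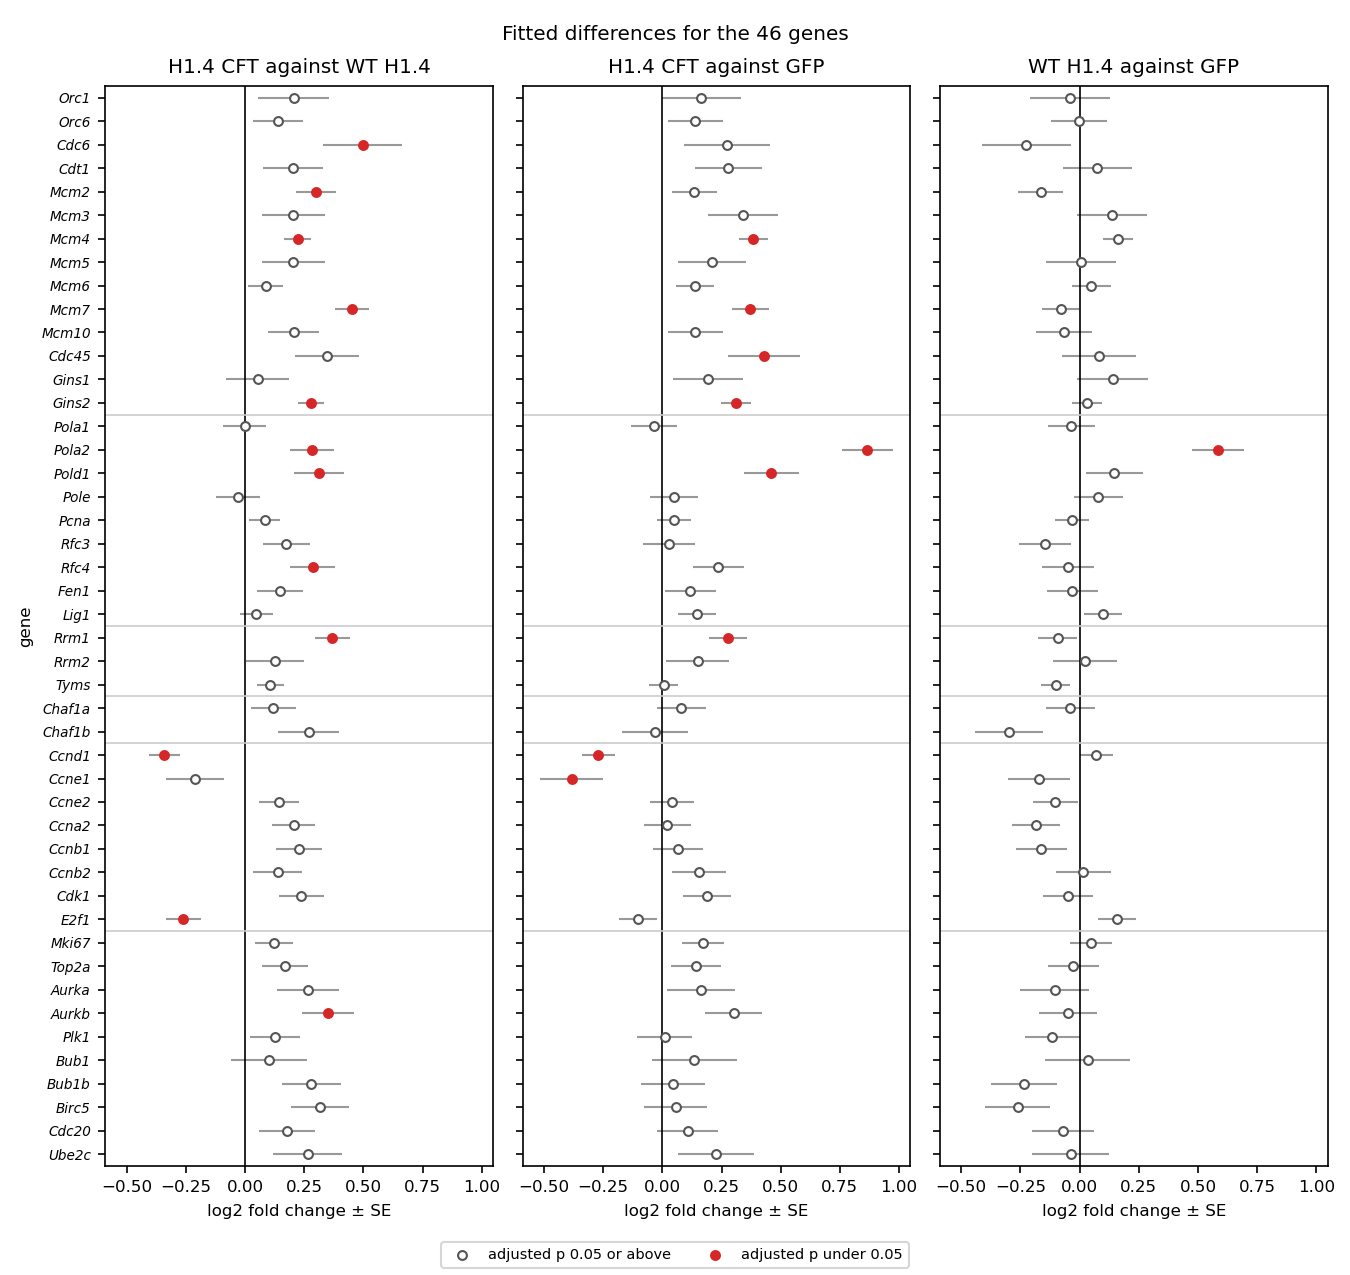
Fitted log2 fold change with its standard error (x axis) for each of the 46 genes (y axis, by role) in H1.4 CFT relative to WT H1.4 (left), H1.4 CFT against GFP (middle) and WT H1.4 against GFP (right), with filled points for adjusted p under 0.05. Of the 46 points, 41 lie above 0 in the left panel, 41 in the middle and 18 on the right.

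The origin licensing and helicase genes, the largest role group, gave the most calls by number. Their share of higher calls against WT H1.4 (35.7%) was close to that of the synthesis genes (33.3%) and the nucleotide supply genes (33.3%). Promoters are shown for the licensing and helicase genes described in full that had an entry, as RefSeq gives them on the rat assembly GRCr8 (250 bases before the gene's start to 30 after it, 5′ to 3′ on the gene's strand). Capitals mark words of the E2F type, of the CHR type and the CCAAT box. The E2F type is TTGGCGC or one of its variants, namely TTCCCGC, further TTCGCGC, and also TTGCCGC, the CHR type (an element of mitotic promoters) is TTTGAA, and the box is read as CCAAT, all on both strands. The Mcm2 promoter lies at chr4:122918065-122918344 on the minus strand, the Mcm7 promoter at chr12:22163149-22163428 on the minus strand, and the Gins2 promoter at chr19:65548023-65548302 on the minus strand.
Mcm2: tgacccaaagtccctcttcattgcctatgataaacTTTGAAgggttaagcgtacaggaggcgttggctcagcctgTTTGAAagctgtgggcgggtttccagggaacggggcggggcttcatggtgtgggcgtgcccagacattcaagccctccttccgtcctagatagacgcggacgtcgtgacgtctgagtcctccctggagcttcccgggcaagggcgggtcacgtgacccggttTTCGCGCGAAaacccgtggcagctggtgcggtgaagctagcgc
Mcm7: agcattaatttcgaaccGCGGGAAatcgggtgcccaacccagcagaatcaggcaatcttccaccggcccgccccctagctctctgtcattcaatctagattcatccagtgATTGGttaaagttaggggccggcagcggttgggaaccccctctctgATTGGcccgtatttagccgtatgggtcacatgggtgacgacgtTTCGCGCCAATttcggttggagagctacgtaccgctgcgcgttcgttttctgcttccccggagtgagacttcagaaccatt
Gins2: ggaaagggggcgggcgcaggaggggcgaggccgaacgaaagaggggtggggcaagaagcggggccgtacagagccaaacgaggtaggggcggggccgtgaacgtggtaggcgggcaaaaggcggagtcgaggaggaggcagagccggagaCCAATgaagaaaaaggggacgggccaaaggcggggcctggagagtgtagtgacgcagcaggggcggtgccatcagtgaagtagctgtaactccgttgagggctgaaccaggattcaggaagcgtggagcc
In the Mcm2 sequence, TTTGAA stands at 2 places and the last capitals are overlapping TTCGCGC words on opposite strands. The Mcm7 sequence holds 3 words of the E2F type and 3 CCAAT boxes, and one of those boxes overlaps the E2F-type words near the start. The Gins2 sequence holds a CCAAT box and none of the other words. Promoters of 36 of the 46 members were in the table. A word of the E2F type stood in 22 of these 36 (61.1%) and in 8.79% of all 33469 promoters of the same length. By role, that was 8 of 11 licensing and helicase genes, 7 of 9 synthesis genes and 1 of 8 mitosis genes with an entry. The word TTTGAA stood in 9 of 36 (25%) against 17.4% of all promoters, and 6 of the 9 were mitosis genes. CCAAT stood in 24 of 36 (66.7%) against 36.2%. The members were chosen as known replication and cell cycle genes, so these shares describe the list. Any link of the words to the changes in H1.4 CFT was not tested. A match is a description of these letters, and binding was not measured.

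Mcm7, a subunit of the helicase ring, had the smallest p of the 46 genes in H1.4 CFT relative to WT H1.4. It stood at 56.2, 57.8, 70.4 and 69.5 CPM in H1.4 CFT libraries 1 to 4, at 46.8, 46, 47.4 and 45.3 CPM in WT H1.4 libraries 1 to 4, and at 45, 49.8 and 52.2 CPM in GFP libraries 2 to 4. All 4 H1.4 CFT values exceeded the 7 others, and libraries 3 and 4 lay furthest above. The mean was 63.5 ± 7.49 CPM (SD, n = 4) with H1.4 CFT, 46.4 ± 0.912 CPM (SD, n = 4) with WT H1.4 and 49.0 ± 3.63 CPM (SD, n = 3) with GFP. Its log2 fold change was 0.45 (SE 0.071, adjusted p = 7.56e-05), or 1.37-fold, against WT H1.4 and 0.37 (SE 0.077, adjusted p = 0.00127) against GFP. Within libraries 1 and 2 it was 0.29 and within libraries 3 and 4 it was 0.59 against WT H1.4. The microRNA genes Mir106b, Mir25 and Mir93 lie within Mcm7, so reads from their shared transcript count for Mcm7.

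Mcm4, another ring subunit, stood at 75.2, 78.2, 72.0 and 70.3 CPM with H1.4 CFT, at 66.2, 69.1, 60.2 and 58.1 CPM with WT H1.4, and at 56.8, 57.2 and 55.9 CPM with GFP. The H1.4 CFT libraries were again all highest, but here libraries 1 and 2 exceeded libraries 3 and 4 in both H1.4 groups. H1.4 CFT had a log2 fold change of 0.22 (SE 0.056, adjusted p = 0.00408) against WT H1.4 and 0.38 (SE 0.062, adjusted p = 0.000116) against GFP. All WT H1.4 libraries also lay above all GFP libraries, with a log2 fold change of 0.16 that did not pass the test (adjusted p = 0.285).

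Gins2, a subunit of the GINS complex that joins the ring to Cdc45, stood at 39.6, 40.5, 42.0 and 42.6 CPM with H1.4 CFT, at 33.9, 32.8, 35.5 and 33.5 CPM with WT H1.4, and at 32.9, 32.3 and 34.3 CPM with GFP. No H1.4 CFT library overlapped the other groups, and the 4 libraries of the group lay close together. The log2 fold change was 0.28 (SE 0.056, adjusted p = 0.000698) against WT H1.4 and 0.31 (SE 0.062, adjusted p = 0.000855) against GFP, and it was 0.26 within libraries 1 and 2 and 0.29 within libraries 3 and 4 against WT H1.4. Gins2 overlaps the gene Gse1 in the annotation.

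Mcm2, a ring subunit that also binds histones, stood at 28.1, 30.5, 39.1 and 34.1 CPM with H1.4 CFT, at 26.4, 26.2, 26.2 and 28.2 CPM with WT H1.4, and at 27.7, 29.8 and 32.3 CPM with GFP. The lowest H1.4 CFT library lay just under the highest WT H1.4 library, and library 3 lay furthest above. The log2 fold change against WT H1.4 was 0.30 (SE 0.086, adjusted p = 0.00999), and without H1.4 CFT 3 the adjusted p was 0.0510. Within libraries 1 and 2 it was 0.15 and within libraries 3 and 4 it was 0.42. Against GFP, over all libraries, it was 0.14 and did not pass (adjusted p = 0.297).

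The other ring subunits did not pass in either H1.4 CFT comparison, but with the library number as a block Mcm3 passed against GFP (0.40, adjusted p = 0.0493). Their log2 fold changes against WT H1.4 were 0.20 for Mcm3, 0.20 for Mcm5 and 0.09 for Mcm6, with adjusted p of 0.247, 0.252 and 0.378. In H1.4 CFT libraries 1 to 4, Mcm3 stood at 17.9, 18.3, 24.2 and 21.0 CPM, Mcm5 at 21.2, 21.7, 29.3 and 27.0 CPM, and Mcm6 at 45.6, 43.0, 55.2 and 51.9 CPM. For each of them libraries 3 and 4 were the higher pair, and all 3 passed within those libraries against WT H1.4, with log2 fold changes of 0.39, 0.33 and 0.16.

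**Figure D4:**
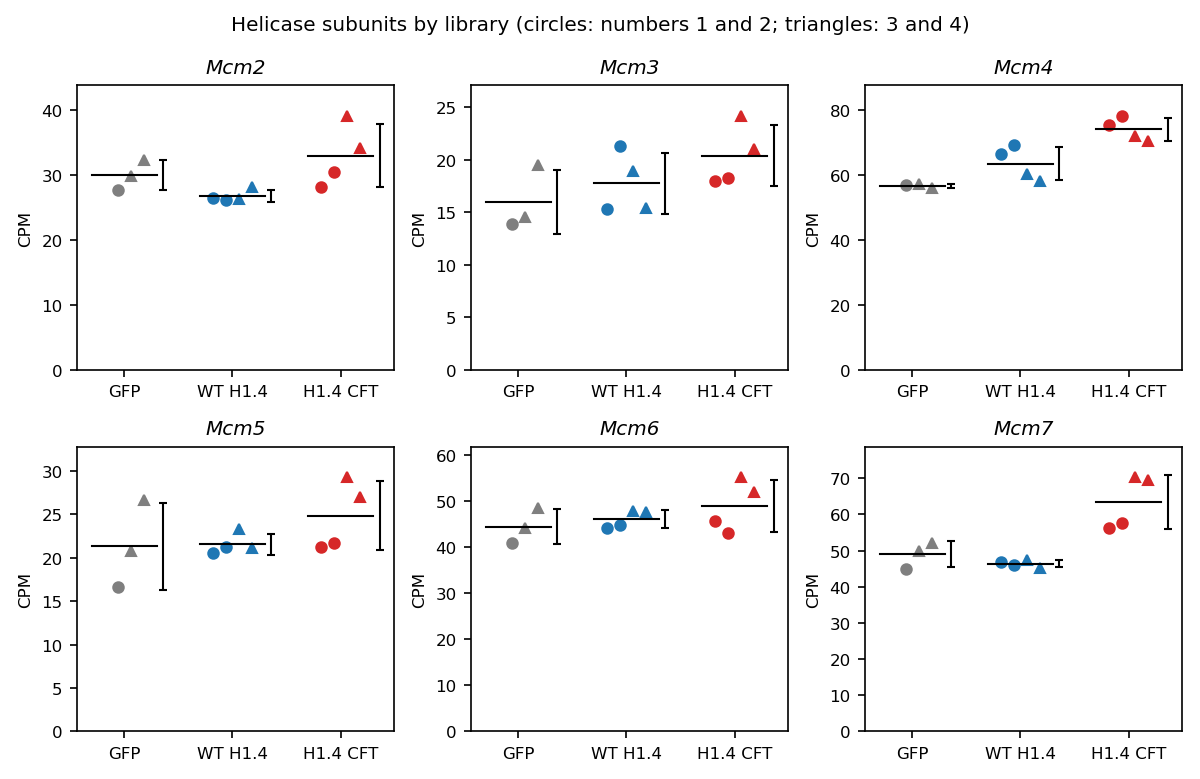
Level in CPM (y axis) of Mcm2 to Mcm7 in each library of the 3 groups, with the group mean (line) and SD (bar); circles are libraries numbered 1 and 2 and triangles libraries numbered 3 and 4. For Mcm7 and Mcm4 all H1.4 CFT libraries lie above all other libraries, at 56.2 CPM or more and at 70.3 CPM or more.

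Of the remaining licensing and helicase genes, Cdc6 and Cdc45 each passed in a single comparison and are named here after their values were seen. Cdc6, the loader of the ring, stood at 4.54, 4.11, 6.30 and 5.86 CPM with H1.4 CFT, at 3.63, 3.76, 4.25 and 3.09 CPM with WT H1.4, and at 3.92, 4.28 and 4.69 CPM with GFP. Libraries 3 and 4 of H1.4 CFT were highest and library 2 fell inside the range of WT H1.4. Its log2 fold change against WT H1.4 was 0.50 (SE 0.17, adjusted p = 0.0245), and the adjusted p was 0.0540 without WT H1.4 1, 0.0820 without WT H1.4 4, 0.0972 without H1.4 CFT 3 and 0.0758 without H1.4 CFT 4. Within libraries 1 and 2 the log2 fold change was 0.23, and within libraries 3 and 4 it was 0.71. Cdc45, the helicase cofactor, stood at 7.83, 8.05, 10.7 and 9.80 CPM with H1.4 CFT, at 7.91, 5.93, 7.11 and 7.52 CPM with WT H1.4, and at 8.06, 5.71 and 6.43 CPM with GFP. Libraries 1 and 2 of H1.4 CFT lay within or close to the range of the controls. Its log2 fold change was 0.43 against GFP (SE 0.15, adjusted p = 0.0392) and 0.35 against WT H1.4 (adjusted p = 0.0532), and within libraries 1 and 2 it was −0.03 against GFP. The call against GFP ended without H1.4 CFT 3 (adjusted p = 0.119), H1.4 CFT 4 (0.0873), GFP 3 (0.176) or GFP 4 (0.133). The origin recognition subunits Orc1 and Orc6, the loader Cdt1, the initiation factor Mcm10 and the GINS subunit Gins1 passed in neither comparison, with log2 fold changes between 0.05 and 0.21 against WT H1.4.

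Among the 9 synthesis genes, the subunits of the polymerase alpha and delta complexes and of the clamp loader gave the calls. Pola2, the regulatory subunit of the primase-bound polymerase alpha, stood at 12.8, 12.8, 13.5 and 14.5 CPM with H1.4 CFT, at 11.4, 11.2, 10.4 and 11.2 CPM with WT H1.4, and at 6.97, 7.72 and 7.39 CPM with GFP. The groups did not overlap, and GFP was lowest. The mean was 13.4 ± 0.812 CPM (SD, n = 4), 11 ± 0.452 CPM (SD, n = 4) and 7.36 ± 0.375 CPM (SD, n = 3), in the same order. The log2 fold change was 0.87 (SE 0.11, adjusted p = 8.38e-06), or 1.82-fold, when H1.4 CFT was compared with GFP. It was 0.58 (SE 0.11, adjusted p = 0.00930) between WT H1.4 and GFP and 0.28 (SE 0.092, adjusted p = 0.0206) between both H1.4 groups. Without GFP 4 the call between WT H1.4 and GFP ended (adjusted p = 0.0747), and between both H1.4 groups the adjusted p was 0.0620 without WT H1.4 3 and 0.0718 without H1.4 CFT 4. Pola1, the catalytic subunit of the same polymerase, had log2 fold changes of −0.0019 and −0.04 in H1.4 CFT relative to WT H1.4 and to GFP and passed in neither.

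Pold1, the catalytic subunit of polymerase delta, stood at 16.5, 13.6, 19.4 and 18.3 CPM with H1.4 CFT, at 12.5, 14.0, 13.2 and 14.9 CPM with WT H1.4, and at 12, 11.6 and 13.2 CPM with GFP. H1.4 CFT 2 lay within the range of WT H1.4 and the other 3 libraries above it. Pold1 had a log2 fold change of 0.31 (SE 0.10, adjusted p = 0.0239) against WT H1.4 and 0.46 (SE 0.12, adjusted p = 0.00555) against GFP. The call against WT H1.4 ended without WT H1.4 1 (adjusted p = 0.0800), WT H1.4 3 (0.0609), H1.4 CFT 3 (0.0965) or H1.4 CFT 4 (0.0707). Rfc4, a subunit of the clamp loader, stood at 16.6, 18.8, 21.5 and 20.4 CPM with H1.4 CFT, at 14.8, 14.5, 17.1 and 17.0 CPM with WT H1.4, and at 14.8, 18.5 and 16.1 CPM with GFP. Its H1.4 CFT libraries overlapped the other groups at library 1. Rfc4 had a log2 fold change of 0.29 (SE 0.096, adjusted p = 0.0255) against WT H1.4, and against GFP it was 0.24 and did not pass (adjusted p = 0.10), but passed with the library number as a block (0.29, adjusted p = 0.0193). The call for Rfc4 ended without WT H1.4 1 (adjusted p = 0.0807), WT H1.4 2 (0.0799), H1.4 CFT 3 (0.0926) or H1.4 CFT 4 (0.0679). The clamp Pcna, the clamp loader subunit Rfc3, the leading strand polymerase Pole, the flap nuclease Fen1 and the ligase Lig1 did not pass, with log2 fold changes between −0.03 and 0.17 against WT H1.4.

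Of the nucleotide supply genes, Rrm1, the large subunit of ribonucleotide reductase, rose. It stood at 67.6, 76.2, 85.9 and 87.3 CPM with H1.4 CFT, at 63.6, 58.7, 65.7 and 57.4 CPM with WT H1.4, and at 62.6, 63.0 and 70.5 CPM with GFP. All H1.4 CFT libraries lay above all WT H1.4 libraries, and the lowest H1.4 CFT library lay below GFP 4. For Rrm1 the log2 fold change was 0.37 (SE 0.074, adjusted p = 0.00109) against WT H1.4 and 0.28 (SE 0.081, adjusted p = 0.0168) against GFP, and the latter had an adjusted p of 0.0795 without GFP 2 and 0.0750 without GFP 3. Tyms, the thymidylate synthase, stood at 48.8, 47.8, 55 and 50.9 CPM with H1.4 CFT, at 48.6, 47.6, 45.5 and 46.2 CPM with WT H1.4, and at 50.5, 48.5 and 52.1 CPM with GFP. These ranges overlapped, and its log2 fold change against WT H1.4 was 0.11 (adjusted p = 0.139). Rrm2, the small subunit of the reductase, stood at 20.8, 21.0, 30.5 and 30.2 CPM with H1.4 CFT, while the WT H1.4 libraries lay between 22.6 and 24.5 CPM and the GFP libraries between 20.8 and 25.6 CPM. Libraries 1 and 2 of H1.4 CFT were below every WT H1.4 library and libraries 3 and 4 above every other library, and the log2 fold change against WT H1.4 was 0.13 over all libraries (adjusted p = 0.444), −0.14 within libraries 1 and 2 and 0.34 within libraries 3 and 4.

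Neither of the chromatin assembly factor subunits, which place histones on new DNA, passed. Chaf1a stood at 20.9, 26.5, 28.0 and 30.3 CPM with H1.4 CFT, at 25.8, 24.8, 24.5 and 22.2 CPM with WT H1.4, and at 24.2, 23.3 and 27.4 CPM with GFP. Chaf1b stood at 7.55, 6.19, 7.04 and 7.93 CPM with H1.4 CFT, at 5.42, 6.51, 6.78 and 5.16 CPM with WT H1.4, and at 7.85, 7.05 and 7.09 CPM with GFP. The groups overlapped for both genes except that WT H1.4 lay below GFP for Chaf1b. The log2 fold changes against WT H1.4 were 0.12 (adjusted p = 0.343) and 0.27 (adjusted p = 0.111). For Chaf1a it was 0.22 without H1.4 CFT 1 (adjusted p = 0.0430), −0.10 within libraries 1 and 2 and 0.31 within libraries 3 and 4.

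The cyclins and their regulators held the members that fell, and these act at the entry into DNA synthesis. Ccnd1 encodes cyclin D1, the partner of the kinases that inactivate the retinoblastoma protein. It stood at 56.7, 58.3, 63.1 and 56.0 CPM with H1.4 CFT, at 76.9, 76.1, 74.9 and 68.5 CPM with WT H1.4, and at 61.4, 77.3 and 73.2 CPM with GFP. All H1.4 CFT libraries lay below all WT H1.4 libraries, while GFP 2 lay below H1.4 CFT 3. The mean was 58.5 ± 3.18 CPM (SD, n = 4) with H1.4 CFT, 74.1 ± 3.84 CPM (SD, n = 4) with WT H1.4 and 70.6 ± 8.26 CPM (SD, n = 3) with GFP. The log2 fold change was −0.34 (SE 0.064, adjusted p = 0.000371), or 1.27-fold lower, against WT H1.4 and −0.27 (SE 0.069, adjusted p = 0.00602) against GFP, and the latter had an adjusted p of 0.0520 without GFP 3. Against WT H1.4 it was −0.41 within libraries 1 and 2 and −0.28 within libraries 3 and 4. Against GFP it was −0.10 within libraries 1 and 2, where GFP is a single library, and −0.34 within libraries 3 and 4. For WT H1.4 against GFP, the log2 fold change of Ccnd1 was 0.31 within libraries 1 and 2 and −0.06 within libraries 3 and 4.

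E2f1, a transcription factor of replication genes, stood at 21.1, 19.6, 23.3 and 19.6 CPM with H1.4 CFT, at 25.1, 24.2, 25.6 and 25.2 CPM with WT H1.4, and at 23.6, 22.7 and 21.1 CPM with GFP. The H1.4 CFT libraries lay below all WT H1.4 libraries and overlapped GFP. All WT H1.4 libraries also lay above all GFP libraries, a difference that did not pass the test. E2f1 had a log2 fold change of −0.26 (SE 0.073, adjusted p = 0.00882) against WT H1.4 and −0.10 (adjusted p = 0.373) against GFP. Ccne1, cyclin E1 of the kinase complex that starts DNA synthesis, stood at 7.89, 9.40, 7.21 and 6.38 CPM with H1.4 CFT, at 8.56, 8.03, 9.43 and 9.65 CPM with WT H1.4, and at 9.95, 9.99 and 10.2 CPM with GFP. The H1.4 CFT libraries overlapped WT H1.4, and the libraries of both H1.4 groups lay below all GFP libraries. Its log2 fold change was −0.38 (SE 0.13, adjusted p = 0.0331) against GFP and −0.21 (adjusted p = 0.184) against WT H1.4, where it was 0.05 within libraries 1 and 2 and −0.50 (adjusted p = 0.00770) within libraries 3 and 4. The call against GFP ended without any one of H1.4 CFT 3, H1.4 CFT 4, GFP 2, GFP 3 or GFP 4, at adjusted p of 0.0780, 0.106, 0.0665, 0.0713 and 0.0948. The cyclins of later phases, Ccne2, Ccna2, Ccnb1 and Ccnb2, and their kinase Cdk1 did not pass in either comparison. Their log2 fold changes against WT H1.4 lay between 0.14 for Ccnb2 and 0.24 for Cdk1 (adjusted p = 0.0530), and within libraries 3 and 4, Ccne2, Ccna2, Ccnb1 and Cdk1 rose. With the library number as a block, Cdk1 and Ccnb1 passed against WT H1.4 (0.23 and 0.22, adjusted p = 0.0296 and 0.0330).

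Among the 10 mitosis genes, Aurkb, the kinase of the chromosomal passenger complex, was the call. It stood at 13.1, 11.7, 15.8 and 15.7 CPM with H1.4 CFT, at 10.6, 10.6, 12.5 and 10.5 CPM with WT H1.4, and at 10.8, 11.9 and 11.6 CPM with GFP. H1.4 CFT 2 lay below WT H1.4 3 and the other H1.4 CFT libraries above all controls. Aurkb had a log2 fold change of 0.35 (SE 0.11, adjusted p = 0.0156) against WT H1.4 and 0.30 (adjusted p = 0.0628) against GFP, where the block by library number gave 0.32 (adjusted p = 0.0301). The adjusted p against WT H1.4 was 0.0605 without H1.4 CFT 3 and 0.0590 without H1.4 CFT 4. Within libraries 1 and 2 the log2 fold change against WT H1.4 was 0.23, and within libraries 3 and 4 it was 0.45. Birc5, the survivin subunit of the same complex, stood at 12, 10.5, 12.9 and 16.2 CPM with H1.4 CFT, at 10.8, 9.84, 11.9 and 8.86 CPM with WT H1.4, and at 11.6, 12.7 and 13.0 CPM with GFP. Its groups overlapped, and the log2 fold change against WT H1.4 was 0.32 (SE 0.12, adjusted p = 0.0511), with an adjusted p of 0.0358 when the library number was a block, 0.0319 without WT H1.4 3, 0.0461 without H1.4 CFT 1 and 0.0135 without H1.4 CFT 2.

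Summed over the 10 mitosis genes, the level was 243.8, 237.9, 323.1 and 306.1 CPM in H1.4 CFT libraries 1 to 4, 234.5 to 255.8 CPM with WT H1.4 and 231 to 269.2 CPM with GFP. H1.4 CFT 1 and 2 thus lay within the range of the controls and H1.4 CFT 3 and 4 above it. The proliferation marker Mki67, the topoisomerase Top2a and the checkpoint kinase Bub1b, named after their values were seen, are given as single genes. Mki67 stood at 62.8, 61.4, 79.6 and 79.8 CPM with H1.4 CFT and at 59.4 to 68.8 CPM in the other groups. Top2a stood at 74.3, 77.5, 101 and 92.7 CPM with H1.4 CFT and at 68.4 to 84.7 CPM in the other groups. Bub1b stood at 13.2, 16.3, 22.6 and 19.4 CPM with H1.4 CFT and at 14.1 to 18.1 CPM in the other groups. Libraries 3 and 4 were the high pair for all 3 genes, and for Bub1b library 1 lay below the range of the other groups. Over all libraries their log2 fold changes against WT H1.4 were 0.12, 0.17 and 0.28, and none passed (adjusted p = 0.258, 0.207 and 0.0908). With the library number as a block, Top2a passed against WT H1.4 (0.16, adjusted p = 0.0220), and Top2a and Mki67 passed against GFP (0.19 and 0.20, adjusted p = 0.0224 and 0.0351). Against WT H1.4 the log2 fold changes of Mki67, Top2a and Bub1b within libraries 3 and 4 were 0.24, 0.28 and 0.51 (adjusted p = 0.000384, 7.65e-06 and 8.63e-05). These p-values measure the spread within that pair of libraries and not the spread between the pairs. Within libraries 1 and 2 the log2 fold changes were −0.02, 0.03 and −0.01. Within libraries 3 and 4, 8 of the 10 mitosis genes rose against WT H1.4, as did 12 of 14 licensing and helicase genes, where 20% of all tested genes rose. Within libraries 1 and 2, 0 of the 10 and 3 of the 14 did, where 11.4% of all tested genes rose.

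**Figure D5:**
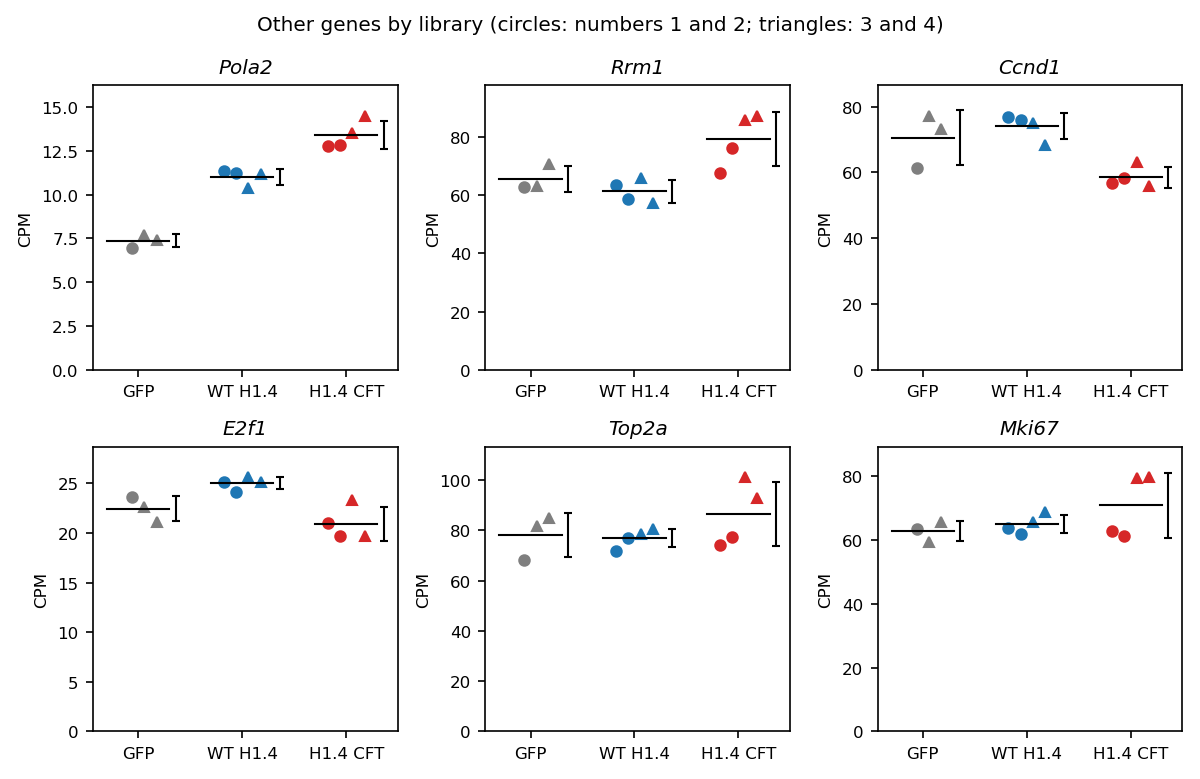
Level in CPM (y axis) of Pola2, Rrm1, Ccnd1, E2f1, Top2a and Mki67 in each library of the 3 groups, with the group mean (line) and SD (bar); circles are libraries numbered 1 and 2 and triangles libraries numbered 3 and 4. Ccnd1 and E2f1 are lower in every H1.4 CFT library than in every WT H1.4 library, and Top2a reaches 101 CPM in H1.4 CFT 3.

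Further genes of the same pathways, 153 in all and 151 tested, gave 25 higher calls (16.6%) and 12 lower calls (7.95%) in H1.4 CFT relative to WT H1.4, where 16.7% and 19.2% of all tested genes were called. Against GFP they gave 22 higher calls (14.6%) and 8 lower calls (5.30%), where 13.3% and 16.2% of all tested genes were called. The share of higher calls was thus near that of all genes, and the share of lower calls was smaller. Of 37 tested other replication factors, 7 rose (18.9%) and 2 fell against WT H1.4. Prim2, the large primase subunit that works with Pola2, rose by a log2 fold change of 0.64 (adjusted p = 0.000184), and the polymerase epsilon accessory subunits Pole3 and Pole4 moved in opposite directions, by 0.29 and −0.26. Of 8 other nucleotide supply genes, 1 rose (12.5%) and 4 fell. Tk1, the thymidine kinase of dividing cells, rose by 0.39, while Rrm2b, the reductase subunit of resting cells, and the CTP synthase Ctps1 had log2 fold changes of −0.27 and −0.15, both of which did not pass within libraries 1 and 2 (−0.18 and −0.10, adjusted p = 0.0971 and 0.0896). Of 10 other chromatin assembly genes, 2 rose (20%), the histone acetyltransferase Hat1 by 0.28 and the histone chaperone Asf1a by 0.19, and none fell. The call of Hat1 ended without WT H1.4 3 (adjusted p = 0.0550), and that of Asf1a without any one of the WT H1.4 libraries or H1.4 CFT 4, at adjusted p from 0.0592 to 0.176. Neither call held within libraries 1 and 2, where the log2 fold change of Hat1 was 0.074.

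Of 27 other regulators of the cyclin-dependent kinases, 6 rose (22.2%) and 4 fell against WT H1.4, where 16.7% and 19.2% of all tested genes did. The repressor E2f6 rose by 0.44 (adjusted p = 4.63e-05), and E2f3 and the retinoblastoma relative Rbl2 had log2 fold changes of −0.41 and −0.24. Among 7 tested kinase inhibitors, Cdkn1a, which encodes p21, rose by 0.49 (adjusted p = 0.00436), from 0.14 within libraries 1 and 2 (adjusted p = 0.254) to 0.83 within libraries 3 and 4, and Cdkn2d had a log2 fold change of −0.58 (adjusted p = 3.56e-05). Against GFP, Cdkn1a rose by 0.55 and Cdkn2d had a log2 fold change of −0.47. Of 42 other mitosis genes, 5 rose (11.9%) and 1 fell against WT H1.4, a smaller share of higher calls than the 16.7% of all tested genes. The spindle pole gene Aspm rose by 0.37 and the checkpoint gene Bub3 by 0.28 (0.13 within libraries 1 and 2, adjusted p = 0.214), and the condensin subunit Ncapg, which overlaps Lcorl, had a log2 fold change of −0.38. Within libraries 3 and 4, 23 of these 42 rose and 1 fell, where 20% and 23.7% of all tested genes did, and within libraries 1 and 2, 1 rose and 1 fell, where 11.4% and 15.3% did. Of 20 replication stress and repair genes, 3 rose (15%) and none fell against WT H1.4, namely Parp1 by 0.16 (0.096 within libraries 3 and 4, adjusted p = 0.110), Ung by 0.34 and Fancd2 by 0.27. The call of Ung ended without any one of WT H1.4 1, 2 or 3 or H1.4 CFT 3 or 4, at adjusted p from 0.0510 to 0.101, and that of Fancd2 without any one of WT H1.4 1 or 3, H1.4 CFT 3 or 4 or GFP 4, at adjusted p from 0.0517 to 0.142. The calls of Ung and Fancd2 also did not hold within libraries 1 and 2, where the log2 fold change of Fancd2 was 0.13. Against GFP, 4 of these 20 rose in H1.4 CFT (20%) and none fell, where 13.3% and 16.2% of all tested genes did. There Fancd2 and Parp1 kept their calls whichever library was left out. Their log2 fold changes against GFP ran from 0.49 to 0.62 and from 0.15 to 0.21 over the alternatives. In WT H1.4 against GFP, Msh6, a mismatch repair gene, was the call among the 151, with a log2 fold change of 0.26 (adjusted p = 0.0475). That call ended in 8 of the 11 fits that left out a library, and held without WT H1.4 2, H1.4 CFT 2 or H1.4 CFT 4.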

How the data were processed

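Per the labels, polyadenylated RNA was sequenced from 11 cultures. The authors deposited raw read counts per gene, made with STAR 2.7.2b and HTSeq 0.10.0 on mRatBN7.2, per the submitters' processing notes. Annotation release and strand setting are not given in the sources used here, so a member's reads may include those of an overlapping gene. Each file holds 42177 entries, of which 5 are summary entries and were left out. The share of reads on genes was 45.9% to 46.9%.

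From these counts, edgeR 4.0.16 (R 4.3.3) kept 17294 genes (filterByExpr, minimum count 10, total 15), scaled libraries by TMM and fitted a robust quasi-likelihood model with group as the term over all libraries (8 residual degrees of freedom). Benjamini-Hochberg adjusted p under 0.05 over all tested genes was called. Fits were tested on simulated data drawn independently for each library. These data held no split by library number, so the test does not cover that spread. Members, lists and the rule for named genes (at most 4 per role by smallest p) were chosen with earlier results of these data known.

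Deviations from the group mean correlated between same-numbered libraries, at 0.142 to 0.192 for H1.4 CFT with WT H1.4, 0.124 to 0.255 for H1.4 CFT with GFP, and 0.0927 to 0.206 for WT H1.4 with GFP. Libraries of different number were not compared in this way, so these values do not show that equal numbers belong together. The fit with the number as a block was made as an alternative. Other alternatives were DESeq2 1.42.0, its size factors, other filters, fits of 2 groups, within-pair fits and leaving out each library. Word matches used RefSeq promoters on GRCr8, and names of overlapping genes come from its RefSeq gene table.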

Additional observations from a re-analysis of the deposited data

Results flagged for a closer look

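In 4 of 92 groups of 4 libraries looked at over the members, 1 library lay apart from the other 3 by more than Dixon's 95% critical value for 4 samples, and chance gives about 1 in 20 groups. All 4 were in the WT H1.4 group. The rule looks for 1 library apart from 3 and is not made for a split into pairs. In H1.4 CFT, libraries 3 and 4 both exceeded libraries 1 and 2 for 38 of 46 members, so the rate of 1 in 20 need not hold there. GFP, with 3 libraries, was not looked at, so the place of the hits says little about WT H1.4. Aurkb stood at 12.5 CPM in WT H1.4 3 and at 10.5 to 10.6 CPM in the others (gap over range 0.967). Mcm2 stood at 28.2 CPM in WT H1.4 4 and at 26.2 to 26.4 CPM in the others (0.874). Ccnb2, cyclin B2, stood at 14.7 CPM in WT H1.4 3 and at 11.5 to 11.9 CPM in the others (0.873). Fen1 stood at 19.1 CPM in WT H1.4 2 and at 15.1 to 15.7 CPM in the others (0.851).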

How the results depend on the processing

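Of 26 results on single members, 11 kept direction and call under every alternative: Mcm4, Mcm7, Gins2, Rrm1, Ccnd1 and E2f1 against WT H1.4, Mcm4, Mcm7, Gins2 and Pola2 against GFP, and Chaf1b against WT H1.4, which passed in none. Counts of members were the same with DESeq2 and with its size factors. Depth was not varied, and the lowest member count was 51 reads, for Cdc6.

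Members higher in H1.4 CFT relative to WT H1.4 numbered 10 over all libraries, where 2893 of all tested genes were higher. They numbered 15 without a low-count filter (2970 of all tested genes) and 18 with the number pair as a term (3483). Within libraries 1 and 2 they numbered 4 (2030 of all tested genes), and within libraries 3 and 4 they numbered 33 (3446). With a library left out they numbered 5 to 16 (2279 to 3002 of all tested genes). Members lower numbered 2 to 3 with a library left out. Against GFP, members higher were 7, where 2302 of all tested genes were higher. They were 12 with the replicate block (2509 of all tested genes), 14 with the number pair as a term (2900) and 16 within libraries 3 and 4 (2967). With a library left out they were 5 to 9 (1662 to 2257 of all tested genes). Members lower were 2, and 1 in a fit of the 2 groups alone, 0 within libraries 1 and 2, and 0 to 2 with a library left out. In WT H1.4 against GFP, members higher were 1, and 2 within libraries 1 and 2, and 0 to 1 with a library left out, and members lower stayed at 0. With the replicate block, 14 members rose and 2 fell against WT H1.4, with Top2a, Cdk1, Ccnb1 and Birc5 added to the calls, and against GFP it added Mcm3, Rfc4, Mki67, Top2a and Aurkb. It ended no member's call in any of the 3 comparisons. The log2 fold change changed sign within libraries 1 and 2 for Cdc45 against GFP (−0.028) and Chaf1a against WT H1.4 (−0.10). The cause of these changes was not tested.

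Over all tested genes, leaving out a library gave 2279 to 3002 higher and 2751 to 3442 lower in H1.4 CFT relative to WT H1.4, and 1662 to 2257 higher and 2304 to 2906 lower against GFP, where libraries 1 and 2 gave 1241 higher. In WT H1.4 against GFP, 75 were higher and 88 lower, against 132 and 136 with DESeq2, 247 and 215 without a filter, 206 and 198 with the number pair as a term, 172 and 176 in a fit of the 2 groups, 949 and 647 within libraries 3 and 4, and 125 higher with the replicate block. Leaving out a library gave 12 to 162 higher and 29 to 144 lower.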
